A study of Mus musculus with 4 samples.

Results

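Fibroblast growth factor (FGF) signalling is described here across genes, in mouse naive embryonic stem cells (nESC) and epiblast-like stem cells (EpiLSC). The members are the genes whose symbols belong to the Fgf, Fgfr, Fgfrl1, Spry, Spred, Dusp or Etv families. Of 63 such symbols in the gene name table, 61 matched a gene among the 20296 of the authors' deposited table, and Dusp21 and Fgf6 were not analysed here. An adjusted p was given for 52 of the 61. RNA was sequenced from 4 samples, 1 from each of the embryonic stem cell lines R1 and E14TG2a in each state. The nESC were kept in 2i/LIF, that is LIF with a pair of kinase inhibitors, which by common definition block GSK3 and MEK, the kinase directly above ERK. The EpiLSC were collected on day 3 in N2B27 medium with activin A at 20 ng/ml and bFGF, the protein product of Fgf2, at 12 ng/ml. What the media did and what the state did cannot be told apart.

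The values come from the authors' comparison table, so levels of single samples and differences between R1 and E14TG2a were not analysed here. Each line was sampled 1 time per state, so the p-values rest on these 4 cultures alone. The line difference is in their spread unless the authors' fit took account of the line. A positive log2 fold change was taken as higher in EpiLSC, because 5 of 5 epiblast markers that are no members (Otx2, Dnmt3b, Pou3f1, Dnmt3a and Sox3) were positive and 5 of 5 naive markers (Zfp42, Klf4, Esrrb, Tfcp2l1 and Nr0b1) negative. The level of a gene in a state was computed from its mean normalized count and its fold change, carries no SD, and is given in normalized counts. Depth per sample is unknown; the means of the authors' deposited table summed to 27888553. A level under 3 rests on few reads, and the size of a fold against it is poorly known.

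FGFs are secreted proteins that bind receptor tyrosine kinases together with heparan sulfate. The receptors act through adaptors and RAS on the kinases RAF, MEK and ERK. ERK in turn switches on genes that restrain it, among them Sprouty and Spred proteins and dual specificity phosphatases (Dusp), as well as the PEA3 group of ETS transcription factors, Etv1, Etv4 and Etv5. In mouse embryonic stem cells the ligand FGF4 is known for driving exit from the naive state through ERK.

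Sequence upstream of the start site is shown for a pair of ligand genes that changed in opposite directions, Fgf4 and Fgf5, and for Dusp5 and Dusp8, whose upstream sequence held repeated matches to motifs of ERK-linked or cyclic AMP-linked factors. Each is the 250 bases before the RefSeq start on build GRCm38.p6, written 5′ to 3′ along the gene, with motif matches in capitals.
Fgf4 (chr7:144861136-144861385, plus strand): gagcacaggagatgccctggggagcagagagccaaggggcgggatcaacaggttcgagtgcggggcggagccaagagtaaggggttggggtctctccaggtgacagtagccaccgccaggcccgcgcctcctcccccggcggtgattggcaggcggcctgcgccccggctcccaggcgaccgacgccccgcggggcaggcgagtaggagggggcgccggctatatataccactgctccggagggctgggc
Fgf5 (chr5:98253934-98254183, plus strand): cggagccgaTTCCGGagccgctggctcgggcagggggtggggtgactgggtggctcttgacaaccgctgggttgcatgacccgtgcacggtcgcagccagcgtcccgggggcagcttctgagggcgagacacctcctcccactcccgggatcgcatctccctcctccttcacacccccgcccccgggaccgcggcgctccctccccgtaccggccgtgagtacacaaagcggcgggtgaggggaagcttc
Dusp5 (chr19:53528895-53529144, plus strand): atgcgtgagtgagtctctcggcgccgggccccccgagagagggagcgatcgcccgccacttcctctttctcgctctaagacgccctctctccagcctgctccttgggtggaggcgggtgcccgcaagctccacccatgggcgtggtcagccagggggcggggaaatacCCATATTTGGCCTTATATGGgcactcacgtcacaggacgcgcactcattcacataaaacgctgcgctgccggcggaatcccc
Dusp8 (chr7:142095285-142095534, minus strand): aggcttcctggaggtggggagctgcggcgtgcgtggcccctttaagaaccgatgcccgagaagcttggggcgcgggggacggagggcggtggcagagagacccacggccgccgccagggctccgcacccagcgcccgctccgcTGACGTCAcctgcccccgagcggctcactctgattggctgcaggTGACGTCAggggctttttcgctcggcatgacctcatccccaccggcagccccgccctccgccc

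The motifs searched on both strands were the ETS core CCGGAA, the cyclic AMP element TGACGTCA, the AP-1 site TGANTCA, the POU octamer ATTTGCAT and the CArG box, the site of serum response factor. In the sequences shown, Fgf4 had no match, and Fgf5 had 1 ETS match on the opposite strand, TTCCGG, which starts 241 bases before the start site. Dusp5 had 2 CArG matches side by side, CCATATTTGG and CCTTATATGG, which start 82 and 72 bases before its start. In Dusp8, 2 copies of TGACGTCA begin 107 and 63 bases before the start. Upstream sequence was matched for 47 of the 61 members. The ETS core was found in 6 of the 47 (12.8%) and in 13.6% of all 27025 genes with upstream sequence, and TGANTCA in 3 (6.38%) against 7.82%. For TGACGTCA the counts were 2 of 47 (4.26%) against 1.77% of all genes, for the CArG box 1 of 47 (2.13%) against 1.62%, and for the octamer 0 of 47 against 1.81%. By the calls given below, matches were not confined to genes that rose. The other member with TGACGTCA was Dusp1, which was not called. The ETS core was also found in Dusp27, which fell, and in 3 of 26 members not called. These matches are a description of the letters in the window.

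Of the 52 members with an adjusted p, 15 rose and 4 fell in EpiLSC (the Wald test of DESeq2 in the authors' deposited table, with a Benjamini-Hochberg value under 0.05). Among all 16361 genes tested, 7.67% rose and 6.23% fell, against 28.8% and 7.69% of the tested members, and 13.9% were called in either direction against 36.5%. The share of members that fell was thus near that of all genes. The median log2 fold change of the tested members was 0.94, and that of all tested genes 0.02. Rises were spread over ligands, intracellular FGFs, Sprouty and Spred genes, phosphatases and Etv4. Of the 5 receptor genes 0 passed the test, but so few genes cannot be set against the 13.9% of all genes. The counts per family below also rest on few genes and are to be read beside these shares. By stricter or looser rules, 12 of the 52 members against 6.91% of all genes differed by more than 2-fold (9 risen against 3.84%, 3 fallen against 3.07%). An adjusted p under 0.01 was found for 14 of the 52 against 9.78%, and one under 0.1 for 23 of the 52 against 16.6%. Bonferroni adjustment left 9 of the 52 (6 risen against 2.33%, and 3 fallen against 2.02%) and 4.36% of all genes. At a mean of 100 or more, 13 of 33 members were called against 11.7% (11 risen against 5.94%, and 2 fallen against 5.74%). Without a filter 19 of the 61 members were called against 10.6%, and 19 of the 52 with a fold of 4 or more against 13.4%. No called member changed by less than a log2 fold change of 2.06, and lack of a call does not show equal levels. Of the 33 members not called, 8 had 95% intervals that stayed inside a 4-fold difference in both directions.

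Among secreted ligands, Fgf4 was the main transcript of nESC and Fgf5 that of EpiLSC. Fgf4 (ENSMUSG00000050917.4) had a level of 5919 normalized counts in nESC and 580.1 in EpiLSC. Its log2 fold change was -3.35 (SE 0.68 and adjusted p 2.28e-05 by the authors' deposited table), and its EpiLSC level was still well above the few-read range. Fgf5 (ENSMUSG00000029337.2), a marker of the epiblast after implantation, went from 11.0 to 3737 normalized counts. Its rise of 8.40 (SE 0.76 and adjusted p 2.60e-25) had the smallest p of all members in the authors' deposited table. Per kilobase of the longest coding transcript, Fgf4 held 92.9% of the summed level of the 17 secreted FGF genes in nESC and 9.20% in EpiLSC, while Fgf5 held 0.210% and 71.8%. The summed level itself was 2103 normalized counts per kilobase in nESC and 2082 in EpiLSC. The leading secreted FGF transcript thus differed between the states while the sums, which carry no error, were close.

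**Figure D1:**
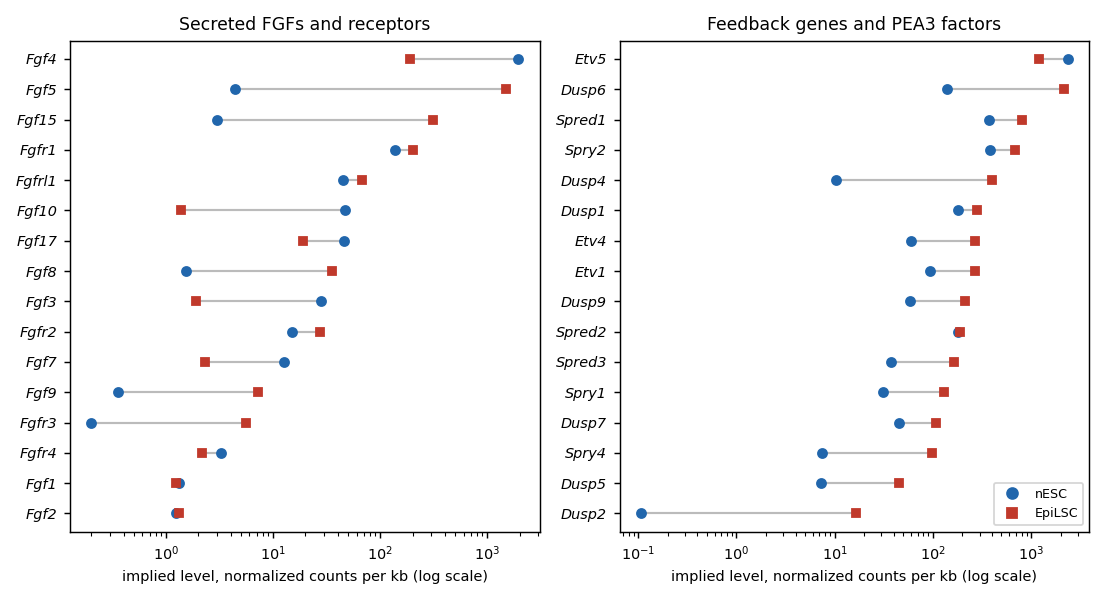
Implied levels of tested members in nESC (circles) and EpiLSC (squares), in normalized counts per kilobase of the longest coding transcript on a log axis, for secreted FGFs and receptors (left) and for feedback genes and PEA3 factors (right), ordered by the higher level. Fgf4 leads the ligands in nESC (1954, against 191.5 in EpiLSC) and Fgf5 leads them in EpiLSC (1494, against 4.41 in nESC). Fgfr1 leads the receptors in both states (138.1 in nESC and 202.6 in EpiLSC). The levels carry no error, and those of Fgfr1 are not shown to be equal.

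Fgf15, the mouse counterpart of human FGF19 and a hormone-like FGF, was the other ligand gene that became abundant. Its level (ENSMUSG00000031073.5) was 5.37 normalized counts in nESC and 567.7 in EpiLSC, a rise of 6.72 on the log2 scale (SE 0.85 and adjusted p 5.42e-13 by the authors' deposited table). Per kilobase it made up 0.141% of the secreted FGF sum in nESC and 15.1% in EpiLSC. Fgf8, a ligand needed for gastrulation, rose from 1.80 to 41.3 normalized counts, by 4.52 (SE 1.29 and adjusted p 0.00529 by the authors' deposited table), so the size of its fold rests on few reads in nESC. Its call ended when tested against a 2-fold change (adjusted p 0.0829 there, and between 0.00529 and 1 over the alternatives).

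The remaining falls among ligands were those of Fgf10 and Fgf3, both of the group that signals mainly through the b splice form of FGFR2. Fgf10, best known from limb and lung buds, went from 193.0 to 5.64 normalized counts, a fall of 5.10 in log2 terms (-5.10 with SE 0.93 and adjusted p 1.62e-06 by the authors' deposited table). Fgf3 went from 64.5 to 4.32 normalized counts (-3.90 with SE 1.07 and adjusted p 0.00332 by the authors' deposited table). The call of Fgf3 was lost in the test against a 2-fold change (adjusted p 0.0865 there, and between 0.00332 and 1 over the alternatives). Fgf7, of the same group, had 33.5 normalized counts in nESC and 6.19 in EpiLSC and did not pass (-2.44 with SE 1.12 and adjusted p 0.160 by the authors' deposited table). All 3 tested genes of this group thus had negative values, and 2 of them passed.

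Several ligand genes stayed low or imprecise. Fgf2, whose protein was supplied in the EpiLSC medium, had 7.45 normalized counts in nESC and 7.79 in EpiLSC (0.06 with SE 1.56 and adjusted p 0.994 by the authors' deposited table), and its 95% interval ran from -2.99 to 3.12. Fgf1 was as low, at 5.29 and 4.96 (-0.09 with SE 1.80 and adjusted p 0.993 by the authors' deposited table). Exons of Fgf2 overlap those of Nudt6 on the opposite strand, and the strand setting of the counting is not given in the sources used here. Fgf17 (77.7 and 31.8 normalized counts; -1.29 with SE 1.30 and adjusted p 0.739 by the authors' deposited table) did not pass. Fgf9, which had 1.28 and 26.1 normalized counts, lay just beyond the threshold (4.35 with SE 1.63 and adjusted p 0.0535 by the authors' deposited table). Fgf16, Fgf18, Fgf20, Fgf21, Fgf22 and Fgf23 were listed without an adjusted p, as was the intracellular Fgf12; the means of these 7 genes were between 0.404 and 3.39 normalized counts.

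The intracellular FGFs, which are not secreted and instead bind voltage-gated sodium channels, also moved. Fgf14 rose from 0.892 to 224.8 normalized counts (7.98 with SE 1.39 and adjusted p 3.71e-07 by the authors' deposited table), a fold whose size rests on few nESC reads. Fgf13 rose from 9.53 to 282.0 normalized counts (4.89 with SE 0.79 and adjusted p 3.24e-08 by the authors' deposited table). Fgf11 was present in both states at 149.6 and 212.5 normalized counts and did not pass (0.51 with SE 0.72 and adjusted p 0.872 by the authors' deposited table). The family symbol thus covers 2 called genes that are not ligands of FGF receptors.

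**Figure D2:**
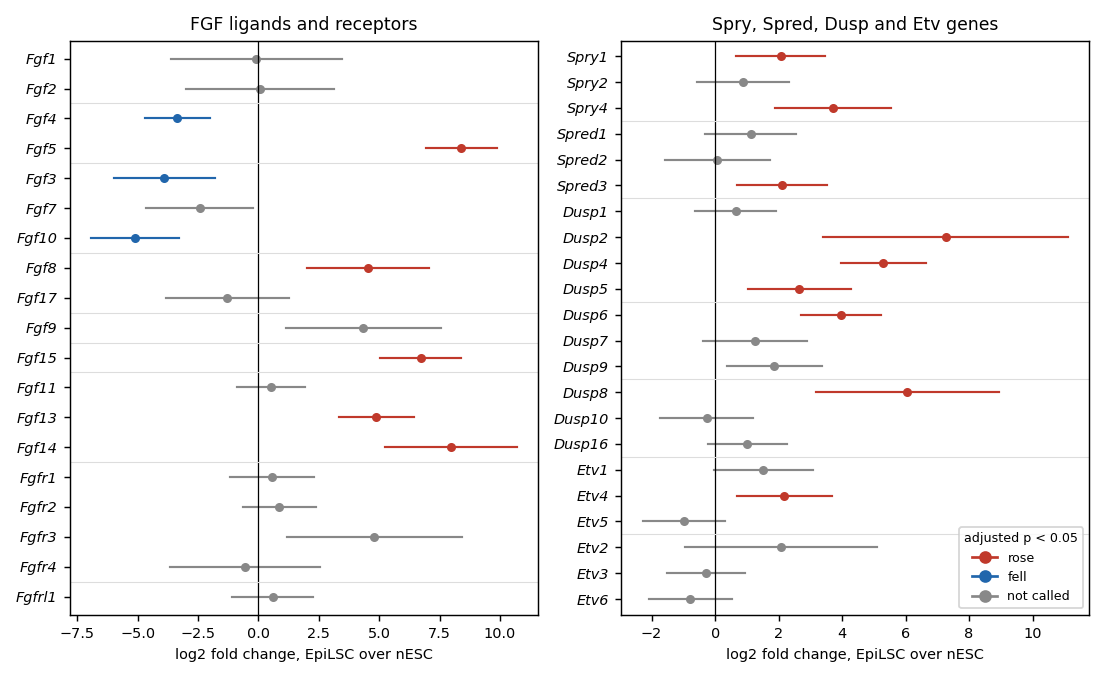
Log2 fold changes of EpiLSC over nESC from the authors' deposited table, with 95% intervals (bars), for the tested Fgf and receptor genes (left) and the tested Spry, Spred, Dusp and Etv genes other than the atypical Dusp genes (right). The left panel includes the intracellular Fgf11, Fgf13 and Fgf14, which are not ligands of FGF receptors. Colours mark an adjusted p under 0.05; Fgf5 at 8.40 and Fgf10 at -5.10 are the extremes of the left panel, and no bar of Fgfr1, Fgfr2, Fgfr4 or Fgfrl1 clears 0.

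Genes with opposite changes sat side by side on the chromosome. In the gene order of the annotation Fgf3, Fgf4 and Fgf15 follow each other directly, on the same strand, with Ano1 before them and LTO1 and Ccnd1 after. Fgf3 and Fgf4 fell, and Fgf15 rose. The nearest genes around the trio were not called. In the authors' deposited table Ano1, a chloride channel gene, was at -1.63 (SE 1.09), LTO1 at -0.81 (SE 0.68), and Ccnd1, the cyclin D1 gene, at -0.03 (SE 0.64). Farther out, the authors' deposited table gave -0.57 for Fadd (SE 0.76), -0.29 for Ppfia1 (SE 0.63) and -1.18 for Tpcn2 (SE 0.75), and none of the 3 passed. The antisense gene Gm26793, whose exons overlap those of Fgf15 on the opposite strand, rose with it, from 0.172 to 19.4 normalized counts (6.82 with SE 2.12 and adjusted p 0.0128 by the authors' deposited table). Reads of the pair cannot be told apart if the counting ignored strand, although the level of Fgf15 in EpiLSC was far higher.

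**Figure D3:**
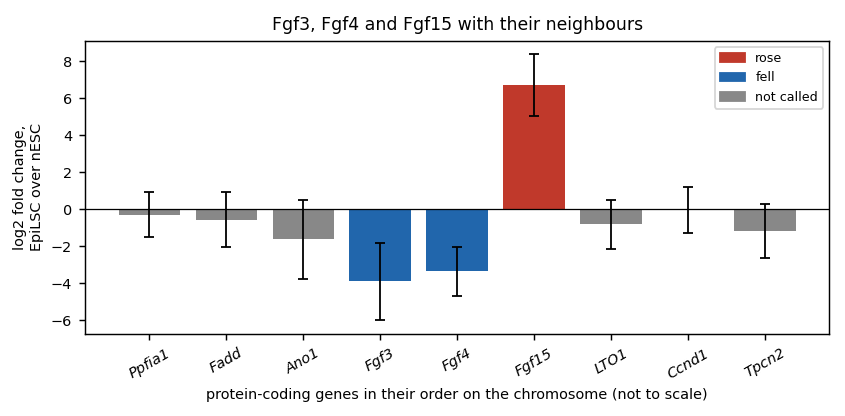
Log2 fold changes of EpiLSC over nESC (bars, with 95% intervals) for Fgf4 and the 4 protein-coding genes on each side, in their order on the chromosome but not to scale, from the authors' deposited table. The falls of Fgf3 (-3.90) and Fgf4 (-3.35) stand next to the rise of Fgf15 (6.72), and the other 6 genes were not called.

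Of the 4 receptor genes with a kinase and Fgfrl1, 0 passed the adjusted threshold (DESeq2 Wald test), and 1 of the 5, Fgfr3, had an unadjusted p under 0.05. Over all tested genes 13.9% were called, and 5 genes are too few to differ from that share. Fgfr1 had 696.4 normalized counts in nESC and 1021 in EpiLSC (0.55 with SE 0.89 and adjusted p 0.901 by the authors' deposited table). Its 95% interval, from -1.19 to 2.29, does not show that the level was the same. Fgfr2 had 65.2 and 118.5 normalized counts (0.86 with SE 0.77 and adjusted p 0.666 by the authors' deposited table). Per kilobase, Fgfr1 held 88.2% of the summed level of the 4 kinase receptors in nESC and 85.2% in EpiLSC, and Fgfr2 9.65% and 11.6%. By these RNA levels, which carry no error, Fgfr1 was the leading kinase receptor transcript in both states.

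Fgfr3 went from 0.849 to 23.7 normalized counts and lay outside the threshold (4.80 with SE 1.85 and adjusted p 0.0646 by the authors' deposited table). Fgfr4 was low in both, at 10.7 and 7.24 (-0.57 with SE 1.58 and adjusted p 0.964 by the authors' deposited table). Fgfrl1, which binds FGFs but lacks the kinase domain, had 105.4 and 158.2 normalized counts (0.59 with SE 0.86 and adjusted p 0.881 by the authors' deposited table). An exon of Fgfr2 in the annotation overlaps Ctbp2 on the same strand, so its count may miss reads or, depending on the counting, share them.

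The Sprouty and Spred genes, which encode inhibitors of signalling from receptor kinases to ERK, had 3 rises and 0 falls among 6 tested. Spry4 rose from 35.6 to 470.1 normalized counts (3.72 with SE 0.93 and adjusted p 0.000938 by the authors' deposited table). This call ended with Bonferroni adjustment (p of 1), and its adjusted p against a 2-fold change was 0.0492. Spry1 rose from 86.5 to 360.8 normalized counts (2.06 with SE 0.71 and adjusted p 0.0296 by the authors' deposited table). Spred3 rose from 153.1 to 659.5 normalized counts (2.11 with SE 0.72 and adjusted p 0.0281 by the authors' deposited table). The genes of these families that were already abundant in nESC did not pass. Spry2 had 794.3 and 1447 normalized counts (0.87 with SE 0.74 and adjusted p 0.639 by the authors' deposited table). Spred1 had 2257 and 4900 (1.12, SE 0.73 and adjusted p 0.440), and Spred2 807.4 and 845.4 (0.07, SE 0.84 and adjusted p 0.989), by the authors' deposited table. Per kilobase, Spry2 and Spred1 together with Spred2 still led the 6 genes in EpiLSC, with 33.2%, 39.0% and 9.09% of their sum. In the test against a 2-fold change the calls of Spry1 and Spred3 ended, with adjusted p of 0.847 (between 0.0296 and 1 over the alternatives) and 0.801 (between 0.0281 and 1).

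The phosphatases that act in the nucleus and are induced by ERK rose in 3 of 4 cases. Dusp4 (ENSMUSG00000031530.6) rose from 28.2 to 1107 normalized counts (5.29 with SE 0.68 and adjusted p 1.35e-12 by the authors' deposited table). Dusp2 rose from 0.173 to 26.6 normalized counts (7.27 with SE 1.97 and adjusted p 0.00280 by the authors' deposited table), with the size of its fold resting on few reads, and its call ended with Bonferroni adjustment (p of 1). Dusp5, an ERK-specific phosphatase with the paired CArG matches shown above, rose from 17.8 to 111.8 (2.65 with SE 0.83 and adjusted p 0.0130 by the authors' deposited table). Its call ended against a 2-fold change (adjusted p 0.387 there, and between 0.0130 and 1 over the alternatives). Dusp1, which also acts on p38 and JNK, was present in both states at 361.3 and 566.2 normalized counts and did not pass (0.65 with SE 0.65 and adjusted p 0.739 by the authors' deposited table).

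The cytoplasmic ERK phosphatases were led by Dusp6, a commonly used readout of FGF and ERK signalling. Dusp6 (ENSMUSG00000019960.7) rose from 386.1 to 6029 normalized counts (3.96 with SE 0.65 and adjusted p 4.97e-08 by the authors' deposited table). Among Dusp1, Dusp2, Dusp4, Dusp5, Dusp6, Dusp7 and Dusp9, it held 31.3% of the summed level per kilobase in nESC and 66.8% in EpiLSC, and the sum went from 440.8 to 3228 normalized counts per kilobase. In nESC the leading gene of these 7 was Dusp1, with 41.2%. Dusp9 (159.7 and 580.0 normalized counts; 1.86, SE 0.77 and adjusted p 0.0929) and Dusp7 (144.3 and 346.8; 1.27, SE 0.84 and adjusted p 0.445) had positive values in the authors' deposited table and did not pass.

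Among phosphatases directed at JNK and p38, Dusp8 rose from 0.937 to 62.5 normalized counts (6.06 with SE 1.47 and adjusted p 0.000606 by the authors' deposited table). With Bonferroni adjustment the call of Dusp8 ended (0.611, and between 0.000606 and 0.611 over the alternatives). Its nESC level was in the few-read range, and its upstream sequence is the one shown with 2 cyclic AMP elements. Dusp16 had 929.5 and 1875 normalized counts (1.01, SE 0.64 and adjusted p 0.404), and Dusp10 182.3 and 151.3 (-0.27, SE 0.75 and adjusted p 0.964), by the authors' deposited table. Neither passed.

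The atypical Dusp genes, which lack the domain that docks MAP kinases, had 1 rise and 1 fall among 11 tested. Dusp27 (ENSMUSG00000026564.8), whose product is thought to lack phosphatase activity, had 1587 normalized counts in nESC and 11.6 in EpiLSC. With a change of -7.10 (SE 0.78 and adjusted p 3.27e-17 by the authors' deposited table) it had the most negative value of all tested members. Gpa33, which lies next to Dusp27 in the gene order and encodes a cell surface antigen, fell too, from 1291 to 24.0 normalized counts (-5.75 with SE 0.85 and adjusted p 1.14e-09 by the authors' deposited table), while the authors' deposited table gave -0.0022 (SE 0.64) for Pou2f1 on the other side. Dusp3 rose from 229.6 to 1118 normalized counts (2.28 with SE 0.73 and adjusted p 0.0174 by the authors' deposited table), a call lost against a 2-fold change (adjusted p 0.585 there, and between 0.0174 and 1 over the alternatives). Of those not called, Dusp11 (-0.13, SE 0.64), Dusp12 (0.05, SE 0.72) and Dusp19 (0.70, SE 0.79) had the highest means in the authors' deposited table. The other 6 not called ranged from -0.63 to 4.13, and Dusp13 and Dusp23 had no adjusted p.

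The PEA3 factors, which FGF signalling is known to induce, had 1 rise and 0 falls among 3. Etv4 rose from 143.7 to 650.1 normalized counts (2.18 with SE 0.76 and adjusted p 0.0346 by the authors' deposited table), a call that ended against a 2-fold change (adjusted p 0.801 there, and between 0.0346 and 1 over the alternatives). Etv1 had 610.8 and 1751 normalized counts and did not pass (1.52 with SE 0.80 and adjusted p 0.250 by the authors' deposited table). Etv5 (ENSMUSG00000013089.14), the most abundant of the 3 per kilobase in both states, had 9457 normalized counts in nESC and 4767 in EpiLSC and did not pass (-0.99 with SE 0.66 and adjusted p 0.454 by the authors' deposited table). Its 95% interval ran from -2.28 to 0.31. Etv5 made up 94.0% of the PEA3 sum per kilobase in nESC and 69.0% in EpiLSC. That sum, which carries no error, was lower in EpiLSC, at 2532 normalized counts per kilobase in nESC and 1737 in EpiLSC.

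The other Etv genes belong to different branches of the ETS family. Etv6, a repressor, had 1445 and 841.5 normalized counts (-0.78, SE 0.67 and adjusted p 0.644), and Etv3, also a repressor, 682.9 and 561.4 (-0.28, SE 0.63 and adjusted p 0.944), by the authors' deposited table. Etv2, a factor of blood and vessel precursors, was low, at 4.93 and 20.8 normalized counts (2.08 with SE 1.54 and adjusted p 0.539 by the authors' deposited table). None of these 3 passed, with 0 unadjusted p-values under 0.05 by the same DESeq2 Wald test.

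Between receptor and feedback genes lie the adaptors, RAS and the kinases. Of 17 genes for receptor adaptors and RAS activation, 0 rose and 1 fell, with a median log2 fold change of 0.26. The fall was that of Rasgrp1, an activator of RAS (-3.22 with SE 0.64 and adjusted p 1.23e-05 by the authors' deposited table). For Nras, of the highest mean among the rest, the authors' deposited table gave 0.38 (SE 0.75). In the RAF, MEK and ERK list, 1 of 14 genes rose and 0 fell (median 0.02). It was Pea15a, whose product keeps ERK in the cytoplasm (3.03 with SE 0.71 and adjusted p 0.000342 by the authors' deposited table). These shares, 5.88% and 7.14% of the tested genes, lie below the 13.9% of all tested genes that were called in either direction, but so few genes allow no statement about the lists.

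**Figure D4:**
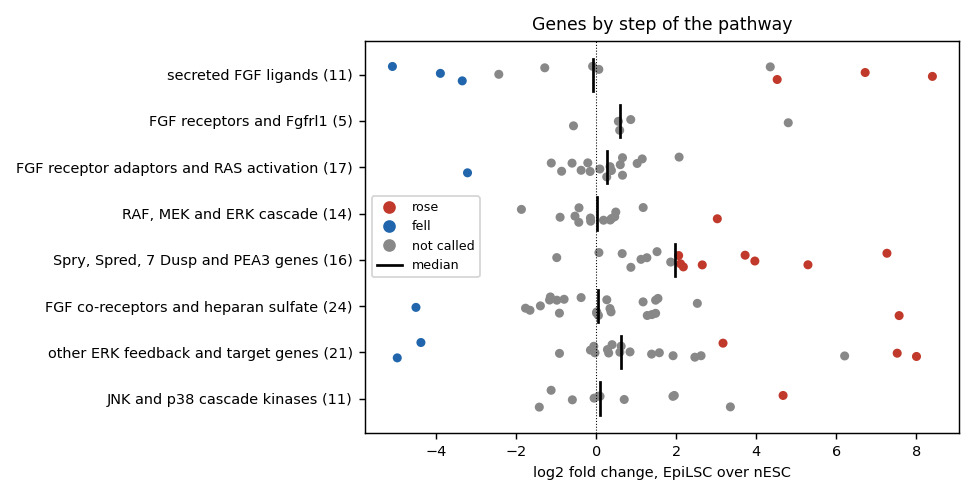
Log2 fold changes of EpiLSC over nESC from the authors' deposited table for tested genes (points, spread vertically at random), by step of the pathway, with the number of genes in parentheses and the median as a black line. The 16 Spry, Spred, Dusp and PEA3 genes hold Dusp1, 2, 4, 5, 6, 7 and 9 and no other Dusp gene, and have a median of 1.96. Of these 16 genes 8 rose (50%) and 0 fell, against 7.67% risen and 6.23% fallen among all tested genes. The medians of the adaptors and of the RAF, MEK and ERK list are 0.26 and 0.02. So few genes allow no statement about differences between the lists.

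Among co-receptors and heparan sulfate genes, 1 of 24 tested rose and 1 fell (median 0.03). Hs6st2, which adds 6-O-sulfate to heparan sulfate, rose by 7.57 (SE 0.92 and adjusted p 3.84e-14 by the authors' deposited table). Klb, the co-receptor of endocrine FGFs including Fgf15, fell, from 74.9 to 3.29 normalized counts (-4.51 with SE 1.12 and adjusted p 0.000897 by the authors' deposited table). Sulf1, which removes 6-O-sulfate and had the highest mean of those not called, was at 0.01 (SE 0.66) in the authors' deposited table. Of 21 other genes known as ERK targets or feedback genes, 3 rose and 2 fell (median 0.62): the early response genes Egr1 (7.52, SE 1.08), Egr2 (8.01, SE 1.85) and Fos (3.17, SE 0.88) rose, and Emp1 (-4.98, SE 0.87) and the ephrin receptor gene Epha4 (-4.38, SE 0.81) fell, in the authors' deposited table. Ccnd1 had the highest mean among those not called. Of 11 JNK and p38 cascade kinases 1 rose, Mapk12 (4.67 with SE 0.75 and adjusted p 3.38e-08 by the authors' deposited table), and 0 fell. Called shares were 8.33% for co-receptors and heparan sulfate, 23.8% for the other ERK genes and 9.09% for the JNK and p38 kinases. Over all tested genes the share was 13.9%, and so few genes allow no statement about the lists.

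Markers of other cell types were called in both directions beside these changes. For fibroblast and feeder genes, 3 of 8 tested rose and 0 fell, with a summed level of 159.4 normalized counts in nESC and 361.3 in EpiLSC over 11 genes. The rises were those of Thy1 (5.83 to 141.4), Dcn (0.485 to 52.6) and Acta2 (0.486 to 68.2), while Col1a1, Col3a1, Lum and Postn had means of 6.07, 3.74, 1.16 and 1.02 in the authors' deposited table. Of the 5 fibroblast genes tested and not called, 3 had positive values and 2 negative ones. Those 2, Pdgfra (69.9 to 13.5) and Pdgfrb (73.9 to 31.2), had the highest nESC levels of the list. Primitive endoderm markers had 3 rises and 1 fall among 9 (sums 6663 and 1228). Foxa2 (1.48 to 142.9), Dab2 (11.8 to 120.8) and Col4a1 (38.3 to 743.9) rose and Lama1 (6511 to 136.1) fell, and Gata6 and Sox7 had means of 2.81 and 1.41 in the authors' deposited table. Trophectoderm markers had 2 rises and 2 falls among 7 (1335 and 4045). Eomes (212.0 to 1917) and Krt18 (43.4 to 1269) rose, Cdx2 (84.5 to 1.80) and Tfap2c (671.3 to 11.9) fell, and Elf5 and Hand1 had means of 0.481 and 0.404 in the authors' deposited table. Mesoderm and streak markers had 3 rises (Mixl1, Wnt3 and Eomes, which is on both lists) and 1 fall (Kdr) among 7, with sums of 771.5 and 2818. Neuroectoderm markers had 2 rises and 1 fall among 6, with sums of 2894 and 9246. Nes (929.4 to 8486) and Zic1 (0.173 to 24.6) rose and Ncam1 (1516 to 188.6) fell. The higher neuroectoderm sum in EpiLSC was due to the level of Nes, and the fold of Zic1 rests on few nESC reads. Called shares of the tested markers were 37.5% for fibroblasts, 44.4% for primitive endoderm and 57.1% for trophectoderm. They were 57.1% for mesoderm and streak and 50% for neuroectoderm, against 13.9% of all tested genes. These lists hold few genes. Whether cells of these types contributed to the values of the members was not tested. In bulk samples, fewer cells of a type and less RNA per cell cannot be told apart.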

How the data were processed

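Per the labels' protocols, the RNA of 4 samples, 2 per state, had ribosomal RNA removed before strand-specific library preparation. Alignment, counting and testing tools in the submitters' processing notes are TopHat2, HTSeq and DESeq2 1.8.2, with mm9 as the build. Neither the annotation nor the strand setting is given in the sources used here. The 1 deposited table holds, per the file headers, the mean normalized count, a signal (counts the authors scaled by size factors). The log2 fold change and its standard error, the Wald score and the p-value with its adjusted p are the authors' DESeq2 values, per the file headers. It has no column per sample, so no count test was run, no leaving out of a replicate was possible, and the main result is the Wald test of DESeq2 that the authors deposited. No adjusted p is listed for 3935 of the 20296 genes, whose highest mean is 3.74, and these were left out of counts of tested genes.

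The level in nESC is 2 times the mean divided by 1 plus the linear fold, and the level in EpiLSC that value times the fold, which gives both states equal weight. Intervals are 95% normal intervals from the standard error. Names for 20167 genes (129 unmatched), exon lengths, gene order and exon overlaps came from GENCODE M21 on GRCm38, another build than the authors', so no coordinates of the files are given. Upstream sequences are RefSeq's on GRCm38.p6; a gene with several starts had a match if any start had one. All Fgf, Fgfr, Spry, Spred and Etv genes with an adjusted p are named, with the called Dusp genes, the 3 of highest mean per role among the Dusp genes not called, and at most 3 called genes per direction and the highest mean among the rest for each other pathway list. One gene that this rule names is not reported here. Gpa33, Pou2f1, Gm26793 and other neighbouring or overlapping genes, and single markers of other cell types, were named after their values were seen. Members and lists were chosen with earlier results of these data known. Alternatives were no filter, a mean of 100 or more, a test against a 2-fold change, adjusted p under 0.01 or 0.1, a fold of 4, Bonferroni adjustment, and other weights of the states. The script that applies these rules was tested on simulated data, which does not test the authors' calls (Python 3.11.15, scipy 1.17.1, pandas 2.3.3).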

Additional observations from a re-analysis of the deposited data

How the results depend on the processing

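The count of 15 members that rose was 9 when tested against a 2-fold change and 6 with Bonferroni adjustment, and the count of 4 that fell was 2 when only means from 100 upwards were tested, where 33 members were tested. The calls of Dusp27, Dusp4, Dusp6, Fgf13, Fgf14, Fgf15, Fgf4 and Fgf5 held in all 7 alternatives. Fgf10, whose mean is just under 100, has no value in 1 of them. A threshold of 0.1 is looser than the main rule and could end no call. A fold of 4 could end none either, because called members changed by at least 2.06 on the log2 scale. With Bonferroni adjustment 10 calls ended, those of Fgf3, Fgf8, Dusp8, Etv4, Spred3, Spry1, Spry4, Dusp3, Dusp2 and Dusp5. At an adjusted p under 0.01, 5 ended, and at 0.1, Fgfr3, Fgf9, Dusp22 and Dusp9 were added. In the other pathway lists 6 genes rose and 4 fell. Bonferroni adjustment, added for these lists after seeing the data together with a threshold of 0.1 and a fold of 4, left 3 rises; in the other alternatives the rises were between 4 and 9, and the falls were 3 or 4 in all 7. No paired analysis was possible because the table has no values per sample, so neither the line as a block nor the leaving out of a sample could be fitted, and edgeR with TMM was not run. Depth limits the 8 tested members whose lower level was under 3, also with other weights of the states.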

Other observations

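Protein-coding neighbours of the called members in the gene order of the annotation were listed as a description, without a test. The 19 called members have 38 neighbouring places, of which 4 are held by other members, those of the Fgf3, Fgf4 and Fgf15 row. Of the 34 others, matched by gene ID, 23 had an adjusted p, and 4 of these were called, each in the direction of the member beside it. That share, 17.4%, is near the 13.9% of all tested genes and shows nothing particular about the neighbours. On either side of Fgf5 lie Prdm8, a gene of the PRDM family, and Cfap299. Prdm8 rose from 1.02 to 33.1 normalized counts (5.02 with SE 1.59 and adjusted p 0.0154) in the authors' deposited table. Cfap299 rose from 0.464 to 105.9 (7.83, SE 1.63 and adjusted p 3.82e-05) by the authors' deposited table, so both folds rest on few nESC reads. The other called neighbours were Gpa33 beside Dusp27 and Selenop, a selenium transport gene, beside Fgf14, which rose from 39.6 to 311.1 normalized counts (2.98 with SE 0.89 and adjusted p 0.00886 by the authors' deposited table). An antisense gene within Etv6, Gm17089, went from 21.3 to 0.191 normalized counts (-6.80 with SE 2.06 and adjusted p 0.00977 by the authors' deposited table), while Etv6 did not pass.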
